A study of Mus musculus with 4 samples.

Results

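The cytosolic ribosomal protein genes were examined in fetal liver progenitors that lack Ddb1, the adaptor that links the CUL4 ubiquitin ligase to its substrate receptors. A gene was a member when a probe set carrying its name alone bore a ribosomal protein symbol (Rpl or Rps with a number, or Rpsa, Rplp0, Rplp1 or Rplp2), without the S6 kinases. This gave 123 probe sets for 66 genes, of 45037 probe sets and 20524 genes in all, and where a gene had several probe sets the brightest on average stood for it. Paralogs such as Rps27l and Rpl22l1 match the symbol pattern and are among the 66. Members such as Rpl5, Rpl24 and Rps29 have no probe set with a single name and are not analysed here.

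LSK cells (Lin-ckit+Sca1+), the sorted fraction that holds the hematopoietic stem cells and early progenitors, came from fetal livers at E16.5 on a C57BL/6x129 background. Both groups carried DDB1 flox/flox alleles, 2 samples without VavCre (control) and 2 with VavCre (Ddb1-deficient), each on 1 Affymetrix array. The Vav1 promoter drives Cre in blood cells of every stage, so the deletion is not limited to LSK cells, and the Cre transgene itself is absent from the controls. Whether a sample was 1 embryo or a pool is not stated.

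Ribosomal proteins assemble with ribosomal RNA in the nucleolus into a small subunit (Rps genes), which decodes the mRNA, and a large subunit (Rpl genes), which joins amino acids. Their mRNAs are among the most abundant of a growing cell and usually start with a pyrimidine tract (5′ TOP), through which mTOR sets their translation. Blood formation is known to depend on their dose, since loss of 1 copy of several of these genes causes Diamond-Blackfan anaemia in humans, and unassembled Rpl5 and Rpl11 can hold back Mdm2, the ligase that degrades Trp53.

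The 4 arrays had median log2 RMA values (background-corrected, quantile-normalized probe set intensities) between 2.026 and 2.085, and correlated with r between 0.934 and 0.974 across genes, the highest between the controls. Ddb1 was at log2 6.06 and 6.26 in the control and 4.58 and 4.33 in the Ddb1-deficient samples. Xist was at 10.09 and 9.96 in the second sample of each group and at 1.93 and 2.15 in the first, so that each group held 1 female and 1 male sample and its duplicates came from different embryos. Of the 14 LSK markers, 5 were separate and lower, Myb (-1.14 ± 0.19) and Runx1 (-0.94 ± 0.25) among them, 3 were separate and higher (Tal1, Lmo2 and Gata2), and 6 overlapped, Kit and Ly6a included. Flt3 was near background in the Ddb1-deficient samples (2.00 and 1.49, against 6.01 and 5.85). All 16 macrophage markers were higher in both Ddb1-deficient samples, with a summed level of log2 14.24 and 14.50 against 11.57 and 12.18. The erythroid sum was also higher (11.29 and 11.55 against 8.95 and 10.17), the endothelial sum was higher (7.49 and 8.04 against 6.46 and 6.91), and the B lineage sum was lower (12.30 and 8.35 against 12.75 and 13.27). All 14 cycling genes had a lower mean, 9 of them with separate groups. Over all genes, both Ddb1-deficient samples lay below both controls in 18.5% and above both in 22.6%. Cell fractions were not measured. The marker differences stand beside every result below, and their part in it was not tested. The sort took Lin- cells, and macrophage genes such as Csf1r (8.98 and 9.52 in the controls) were read in both groups.

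Most ribosomal protein genes were slightly lower in Ddb1-deficient LSK cells. The log2 difference was below 0 for 55 of the 66 genes, with a median of -0.23 (quartiles -0.37 and -0.10), so that the median gene stood at 85.0% of its control level. In 45 genes both Ddb1-deficient samples lay below both controls (68.2%), in 1 gene both lay above, and in 20 the groups overlapped. Over all 20524 genes the median difference was 0.03, 45.6% of genes were below 0, 18.5% had both Ddb1-deficient samples below both controls and 22.6% had both above. In bulk samples fewer cells of a type and less RNA per cell cannot be told apart.

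**Figure D1:**
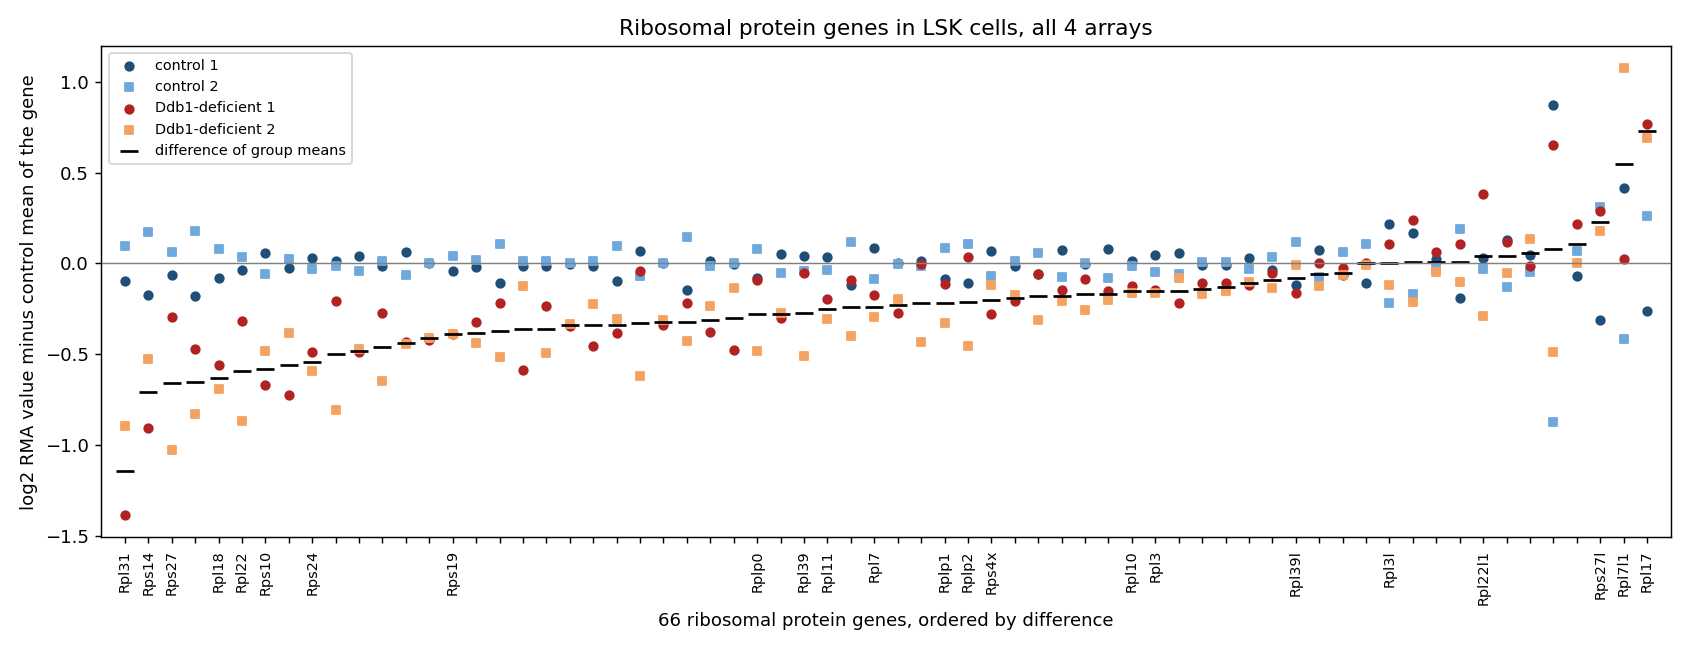
Log2 RMA value of each of the 66 ribosomal protein genes on each of the 4 arrays, minus the mean of the 2 controls of that gene, with genes ordered by the difference of group means (black dash) and a part of them named on the axis. Both Ddb1-deficient arrays (red and orange) lie below both controls (blue) in 45 genes, from Rpl31 at the left, and Rpl17 at the right is the gene with both above.

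No member passed limma with Benjamini-Hochberg adjustment over all genes, and neither did any other gene (0 of 20524 in each direction, 0.0%). The smallest adjusted p of a member was 0.284 (Rpl31), against 0.132 over all genes. At an unadjusted limma p under 0.05, 5 members were lower (Rpl31, Rps14, Rpl18, Rps10 and Rps24, 7.58%) and 1 was higher (Rpl17). The count of lower members was 1 without the first control, 0 without the second, 6 without the first Ddb1-deficient sample and 4 without the second. The replicate number coincides with the sex of the sample, and with it as a block Rpl31 and Rps14 were at that p, while Rpl18, Rps10, Rps24 and Rpl17 were not. Of all genes, 6.05% were lower and 4.9% higher by the same rule, so the share of lower members was near that of the whole array. With the variance prior following the level (limma trend and robust) 16 members were lower (24.2%), against 5.27% of all genes. The methods' t-test also counted 16, against 3.74%, and 9 genes were in both of these sets. The 5 lower members of the plain fit were all among the 16 of the trend fit.

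Since ribosomal protein genes are among the brightest on the array, genes of like level are the closer comparison. Of the 1179 genes with a mean log2 of at least 8, members included, 65.4% were below 0, 40.6% had both Ddb1-deficient samples below both controls and 17.5% had both above. The 60 members in that range had 53 below 0, 45 separate and lower and 0 separate and higher. The other 1119 bright genes had a median difference of -0.17, and the 60 members one of -0.26. At an unadjusted p under 0.05, 10.1% of bright genes were lower by limma, 13.3% by the trend fit and 8.91% by the methods' t-test. The members' quartiles were -0.38 and -0.15, against -0.45 and 0.15 for the other bright genes, so their differences lay closer together. Part of this went with level, since most other bright genes lay at the lower end. Between log2 8 and 9 the quartiles were 0.28 apart for members and 0.65 for others. Between 11 and 12 these distances were 0.19 and 0.38, and from 12 to 14 they were 0.19 and 0.25.

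**Figure D2:**
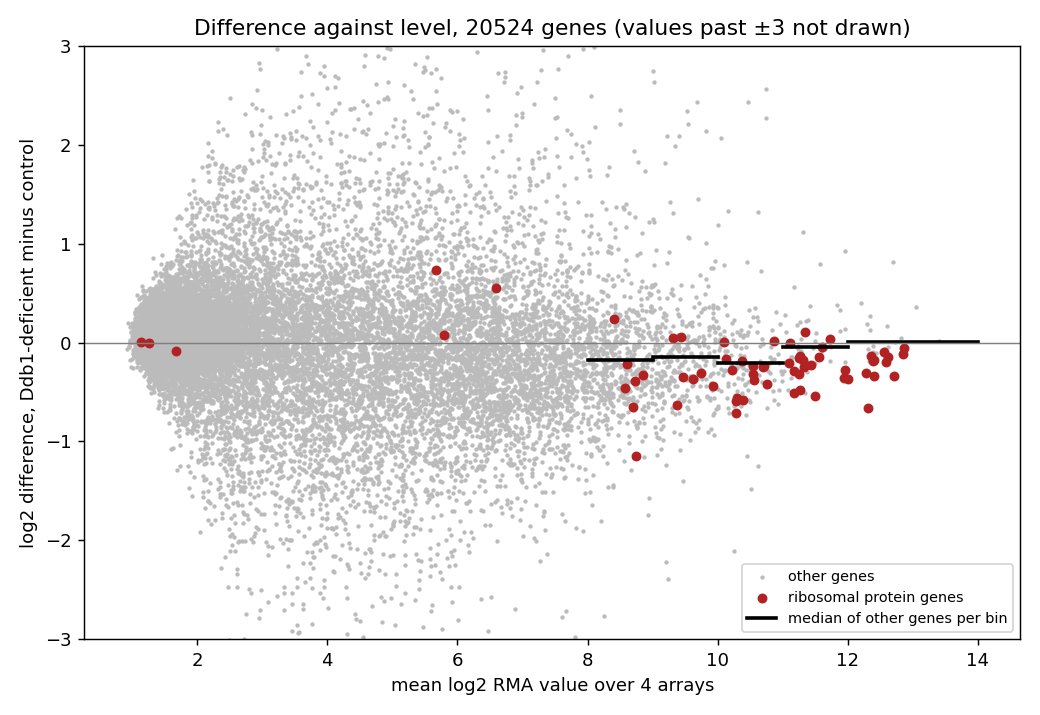
Log2 difference (Ddb1-deficient minus control) against the mean log2 RMA value over the 4 arrays for 20524 genes (grey, 111 genes past ±3 not drawn) with the 66 ribosomal protein genes in red. Black lines are the median of the other genes in each bin from log2 8 upward, and the median of the members was below that of the other genes in each bin.

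The difference was smaller in members with a brighter probe set, whereas that of other genes was close to 0 there. Between log2 8 and 9 the 7 members had a median of -0.39, and the 606 other genes -0.18. Between 10 and 11 the 15 members had a median of -0.28 and the 141 others -0.21. Between 11 and 12 these were -0.22 for 19 members and -0.04 for 42 others. From 12 to 14 all 12 members were below 0, with a median of -0.18, and 11 of them were separate. The 17 other genes of that level had a median of 0.01, with 41.2% below 0 and 3 separate and lower.

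Both Ddb1-deficient arrays gave the same direction. The members' median, relative to the control mean of each gene, was -0.01 and 0.01 in the controls and -0.17 and -0.29 in the Ddb1-deficient samples. Within the male pair 54 of 66 members were lower in the Ddb1-deficient sample (median -0.22), and within the female pair 60 were (median -0.26). Of all 1179 bright genes, 739 were lower within the male pair (median -0.15) and 737 within the female pair (median -0.14). The median absolute difference between duplicates was 0.12 in the controls and 0.16 in the Ddb1-deficient samples, so for a typical member the group difference was larger than the spread between duplicates. The second Ddb1-deficient sample was lower than the first in 44 members.

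The share of the summed linear intensity held by the 66 probe sets was 6.12% and 6.21% in the controls and 5.65% and 5.5% in the Ddb1-deficient samples. Over all 123 probe sets it was 8.65% and 8.76% against 7.95% and 7.80%. A further reading came from 107 probe sets that list a ribosomal protein beside other names, which the choice of members left out. They held 7.26% of the signal in both controls, and 6.69% and 6.58% in the Ddb1-deficient samples. In each of these measures both Ddb1-deficient samples were below both controls, although 2 against 2 samples cannot go below p = 0.33 in an exact permutation test.

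**Figure D3:**
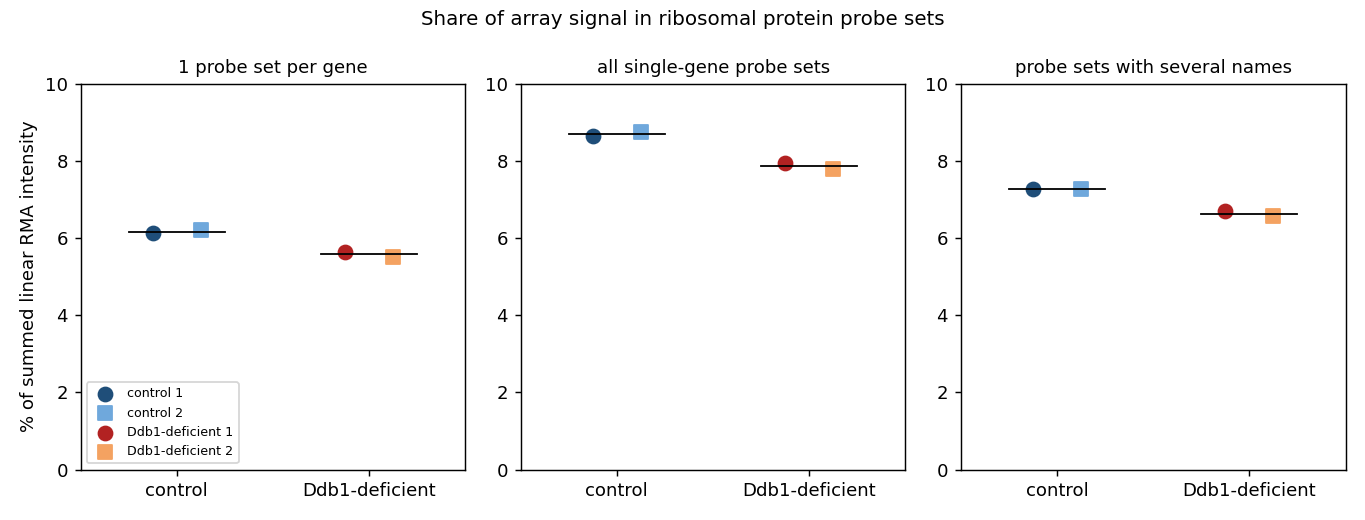
Percent of the summed linear RMA intensity in ribosomal protein probe sets, per array (points) and group mean (line), for 1 probe set per gene, all 123 probe sets with a single name, and 107 probe sets with several names. In each panel the 2 Ddb1-deficient arrays lie below the 2 controls, for example 5.65% and 5.5% against 6.12% and 6.21%.

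Control probe sets did not follow this direction. The 3 probe sets of 18S ribosomal RNA were higher in both Ddb1-deficient samples, by 0.27 to 0.54 on the log2 scale, and those for Actb and Gapdh by 0.18 to 0.58. The bioB and bioC spikes, bacterial transcripts added at a fixed amount before hybridization, were higher by 0.57 to 0.70, while the brighter cre spike differed by at most -0.03. The 3′ minus 5′ log2 difference of Actb was 0.24 and 0.24 in the controls and 0.26 and 0.51 in the Ddb1-deficient samples, and that of Gapdh was 3.62 and 4.0 against 3.55 and 3.61. The part of these differences in the ribosomal protein values was not tested.

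Among single members, Rpl31, a large subunit protein beside the exit of the peptide tunnel, had the lowest difference. It was at log2 9.22 and 9.41 in the controls and at 7.93 and 8.42 in the Ddb1-deficient samples. The groups were far apart relative to their duplicates (-1.14 ± 0.25 SE, 45.3% of control, n = 2 per group, limma adjusted p = 0.284). Rps14, a small subunit protein whose loss is tied to the 5q- syndrome in humans, was at 10.47 and 10.82 against 9.74 and 10.12 (-0.71 ± 0.25). Its Ddb1-deficient samples were both lower, although duplicates also differed within each group (limma adjusted p = 0.448).

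Rpl18 of the large subunit was at 9.60 and 9.76 against 9.12 and 8.99 (-0.63 ± 0.18, 64.6% of control, limma adjusted p = 0.382). Its other probe set, with a mean log2 under 8, overlapped between the groups (0.16), and the mean of both differed by -0.24. Rps10, at the mRNA entry side of the small subunit, was at 10.74 and 10.62 against 10.01 and 10.20 (-0.58 ± 0.19, limma adjusted p = 0.423). Rps24, a small subunit protein needed for 18S RNA maturation, was at 11.79 and 11.73 against 11.27 and 11.17 (-0.54 ± 0.17, limma adjusted p = 0.419). In the chosen probe sets of these 3 genes the duplicates lay close together and the groups apart.

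Rps27, which carries a zinc finger of the small subunit, was at 12.57 and 12.70 in the controls and 12.34 and 11.61 in the Ddb1-deficient samples (-0.66 ± 0.31, limma adjusted p = 0.575). Here the second Ddb1-deficient sample gave most of the difference, which was -0.29 without it. Rpl22, a large subunit protein that mouse αβ T cell development needs, was at 10.54 and 10.61 against 10.26 and 9.71 (-0.59 ± 0.26), and likewise -0.32 without that sample. Rpl12, at the base of the stalk, was chosen after its values were seen. It was at 8.84 and 9.20 against 8.55 and 8.19, and its other, dimmer probe set overlapped between the groups (0.58).

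The starts of 8 of these genes are shown, from 40 bases before to 20 bases from the annotated start on, since pyrimidine tracts at the start are the feature these genes are known to share. The stretches are from RefSeq's GRCm38.p6 promoter windows, 5′ to 3′ on the strand of the gene. Capitals mark pyrimidine runs with at least 8 bases within 15 bases of the start, and CCGGAAG, the core bound by ETS family factors, on either strand. Only the part of a run within that range is marked, so that of Rpl31 is cut. A run need not cover the annotated start, and that of Rpl31 ends before it. Rpl31 lies at chr1:39367811-39367870 (+), Rps27 at chr3:90213629-90213688 (-), Rpl12 at chr2:32961672-32961731 (+), Rpl18 at chr7:45718031-45718090 (+), Rpl22 at chr4:152325686-152325745 (+), Rps10 at chr17:27635225-27635284 (-), Rps7 at chr12:28635934-28635993 (-) and Rps24 at chr14:24490638-24490697 (+).
Rpl31: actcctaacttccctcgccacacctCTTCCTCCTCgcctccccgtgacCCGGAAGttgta
Rps27: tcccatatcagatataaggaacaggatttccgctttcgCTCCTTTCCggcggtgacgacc
Rpl12: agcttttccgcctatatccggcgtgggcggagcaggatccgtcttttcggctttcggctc
Rpl18: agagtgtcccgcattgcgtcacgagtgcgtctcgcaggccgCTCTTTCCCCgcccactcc
Rpl22: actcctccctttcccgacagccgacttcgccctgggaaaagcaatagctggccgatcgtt
Rps10: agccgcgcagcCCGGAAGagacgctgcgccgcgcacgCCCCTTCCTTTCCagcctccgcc
Rps7: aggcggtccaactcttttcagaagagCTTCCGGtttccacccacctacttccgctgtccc
Rps24: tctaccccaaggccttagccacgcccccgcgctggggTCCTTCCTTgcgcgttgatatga

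Of the 8 stretches, those of Rpl31, Rps27, Rpl18, Rps10 and Rps24 held a pyrimidine run, and those of Rpl31, Rps10 and Rps7 the ETS core. RefSeq promoter windows of 300 bases (250 before the start and 50 from it on) were matched by symbol for 50 of the 66 members, 8 of which had several windows. A gene counted when any of its windows held the feature. The pyrimidine run was present in 24 of 50 members (48.0%) and in 13.9% of 27025 genes with a window. CCGGAAG was found on either strand in 24 members (48.0%), against 9.93% of all genes. AAGATGGC, the core of YY1 sites, was in 5 of 50 members (against 3.19%), and GGGCGG, the core of Sp1 family sites, in 30 of 50 (against 38.2%). The run and CCGGAAG were both present in 13 members, and overlapped in 1.

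The 24 members with a pyrimidine run had a median of -0.25 and the 26 without -0.22. With CCGGAAG the median was -0.26 and without it -0.19. The 5 members with AAGATGGC had a median of -0.50, against -0.21 for the other 45, a contrast that rests on few genes. These are descriptions over members with a matched window, without a test.

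Both subunits shared the direction. Of the 40 large subunit members, stalk included, 34 were below 0 and 25 separate and lower (62.5%), with a median of -0.23. Of the 26 small subunit members 21 were below 0 and 20 separate and lower (76.9%), with a median of -0.30. Of all genes 18.5% were separate and lower, and of bright genes 40.6%. At an unadjusted limma p under 0.05, 2 large and 3 small subunit members were lower. By that rule 6.05% of all genes and 10.1% of bright genes were lower, and the large subunit share was under both.

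The stalk proteins, which recruit the GTPases of translation, were lower by small amounts that varied between samples. Rplp0 was at 10.29 and 10.45 against 10.28 and 9.89, and Rplp1 at 8.64 and 8.81 against 8.61 and 8.40. Rplp2, at 11.10 and 11.31 against 11.24 and 10.75, overlapped between the groups. Rpl11, the partner of Rpl5 and the 5S RNA in restraining Mdm2, was at 10.86 and 10.79 against 10.63 and 10.52 (-0.25 ± 0.17). Its duplicates were closer to each other than to the other group.

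Of 18 genes linked to Diamond-Blackfan anaemia in humans, 13 had a probe set of their own. All 13 were below 0, Rpl35 only at -0.00, 11 were separate and lower, and the median difference was -0.44. All 13 had a mean log2 of at least 8. Of the 60 members of that level, these 13 included, 53 were below 0 and 45 separate and lower, with a median of -0.26. Of all bright genes, 40.6% were separate and lower. The 4 of the 13 at an unadjusted limma p under 0.05 were Rpl31, Rpl18, Rps10 and Rps24. Of all bright genes, 10.1% were lower at that p. Rps19, the gene in which mutations are best known, was at 8.88 and 8.96 in the controls and 8.53 in both Ddb1-deficient samples (-0.39 ± 0.17, limma adjusted p = 0.539). Rpl35, chosen after its values were seen, was at -0.00 ± 0.19 with overlapping groups.

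The X-linked members were all slightly lower. Rpl10, which completes the large subunit at the peptidyl transferase centre, was at 11.65 and 11.62 against 11.51 and 11.47. Rps4x was at 12.76 and 12.62 against 12.41 and 12.57. Rpl39 was at 12.14 and 12.06 against 12.05 and 11.59, with a difference (-0.27 ± 0.24) that was -0.05 without the second Ddb1-deficient sample. Each of these genes had separate groups, and none an unadjusted limma p under 0.05. Of the 60 bright members, these included, 45 were separate and lower.

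The paralogs had no common direction. Of 5 measured paralogs none had separate groups, and the median difference was 0.04. All 6 partners measured were separate and lower, with a median of -0.26. The partners were all bright, and 45 of the 60 bright members and 40.6% of all bright genes were separate and lower. Of the 5 paralogs, 3 had a mean log2 under 8, so the 2 lists also differ in level. Rps27l, a Trp53 target in humans, was at 7.98 and 8.60 against 8.58 and 8.47 (0.23 ± 0.28), where Rps27 was lower. The first control alone was low, and without it the difference was -0.08. The other probe sets of Rps27l were higher in both Ddb1-deficient samples, by 0.28 and 0.29. They were at 7.124 and 7.468 against 7.515 and 7.637, and at 7.373 and 7.919 against 7.921 and 7.961. The first control was again the lowest sample, and the second lay close to the Ddb1-deficient samples. Rpl22l1, whose product can take the place of Rpl22 in the ribosome, was at 9.32 and 9.26 against 9.67 and 9.0, so that the Ddb1-deficient samples lay on either side of the controls.

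Rpl7l1 was at 6.73 and 5.90 against 6.34 and 7.39 (0.55 ± 0.51), and its other probe sets had differences of -0.42 and -0.91, so no direction held. Rpl3l, a muscle form, and Rpl39l, a testis form, lay below the array median in every sample (1.04 to 1.48, and 1.55 to 1.83). The partners Rpl3 (11.38 and 11.29 against 11.19 and 11.17) and Rpl7 (10.91 and 10.74 against 10.65 and 10.53) were separate and lower. The difference between a paralog and its partner was not tested.

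**Figure D4:**
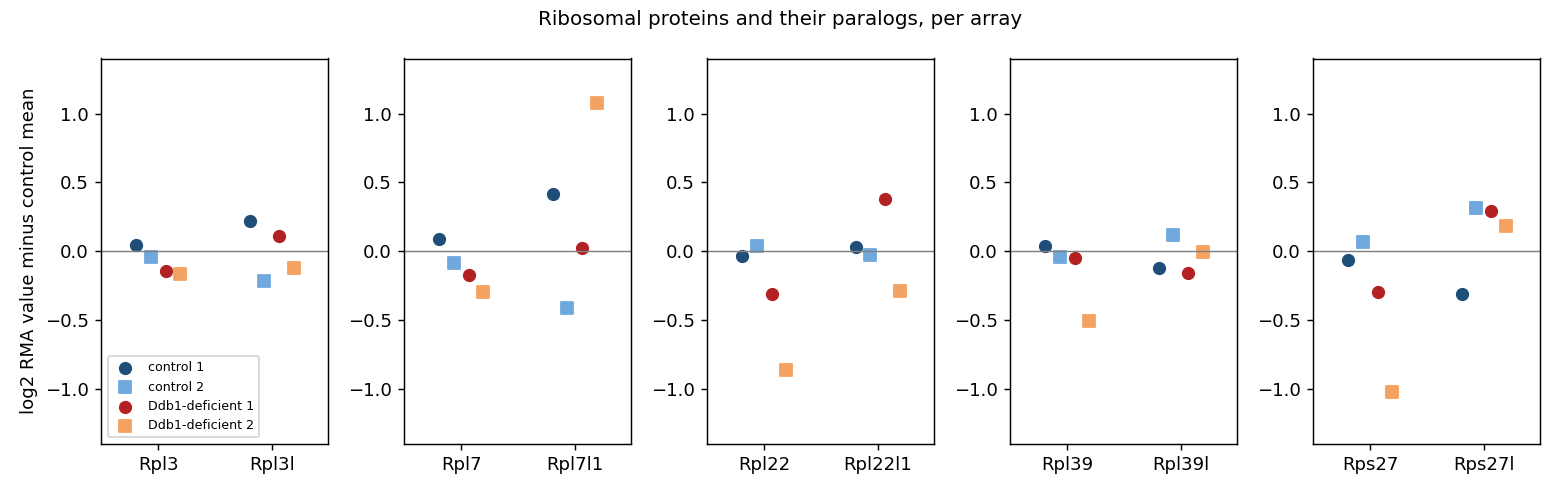
Log2 RMA value on each array minus the control mean of that gene, for 5 ribosomal proteins and the paralog of each. Rpl3, Rpl7, Rpl22, Rpl39 and Rps27 have both Ddb1-deficient arrays (red and orange) below both controls (blue), while their paralogs overlap between the groups.

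Starts of Rpl22l1 (chr3:28805468-28805527, +) and Rps27l (chr9:66946046-66946105, +) are given in the same way, to be read beside those of their partners above. Both hold a pyrimidine run near the start, as Rps27 does, and Rps27l also holds the ETS core. The run of Rps27l ends before the annotated start, whereas that of Rps27 covers it.
Rpl22l1: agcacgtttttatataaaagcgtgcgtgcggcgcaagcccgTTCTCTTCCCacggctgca
Rps27l: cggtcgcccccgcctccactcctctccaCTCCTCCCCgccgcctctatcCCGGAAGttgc

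Rpl17 was the gene with both Ddb1-deficient samples above both controls. This large subunit protein was at 5.04 and 5.56 against 6.07 and 5.99 (0.73 ± 0.25, limma adjusted p = 0.441). Its probe set is the only one with its name alone, and it is among the 6 members with a mean log2 under 8, beside Rpl7l1, Rpl3l, Rpl39l, Rps6 and Rps16. Rps16 was at 0.95 to 1.33 in every sample, under the array median, and Rps6 varied widely between duplicates (6.62 and 4.87 against 6.40 and 5.26).

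Probe sets of the same gene mostly pointed the same way. Of 31 genes with several probe sets, 17 had all of them below 0, 3 had all above, and 11 had both signs. The 57 probe sets that were not chosen had a median difference of -0.23, and of the 30 among them with a mean log2 of at least 8, 29 were below 0. Of the 107 probe sets with several names, the 70 in that range had 68 below 0 and 50 separate and lower, with a median of -0.20. Of all 1843 probe sets in that range 66.7% were below 0, 41.6% were separate and lower, and the median was -0.18. Rps10 had 6 probe sets, all below 0, the dimmest by -0.07 and the others by -0.32 to -0.73. Rps9 was the clearest disagreement, with a chosen probe set near 0 (0.04), another at -0.59 and a dim one at 1.43. These genes have many processed pseudogenes, and probe sets with the suffix x or s may read several transcripts. The 4 members on s probe sets had a median of -0.39, the 29 on a probe sets, which read several transcripts of the same gene, -0.30, the 20 on x probe sets -0.16 and the 13 on plain probe sets -0.17.

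Ribosomal proteins that the symbol pattern left out varied. Rack1, on the head of the small subunit, was at 10.40 and 10.58 against 10.17 and 10.08, and Fau, which encodes Rps30 fused to a ubiquitin-like protein, at 8.81 and 9.01 against 8.67 and 8.55. Both were separate and lower. Rpl36al overlapped (10.27 and 10.45 against 10.33 and 10.49).

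Other genes of ribosome production were less uniform. Genes taken as having TOP mRNAs numbered 17, elongation and eIF3 factors with a few others such as Tpt1, Btf3 and Nap1l1. Of these, 9 were separate and lower (52.9%) and 1 higher (5.88%), with a median of -0.18. Over all genes these shares were 18.5% and 22.6%, and over all bright genes 40.6% and 17.5%. All but 3 of the 17 were bright. Eef1g and Eif3f were lower at an unadjusted limma p under 0.05, as were 6.05% of all genes and 10.1% of bright genes. Eef1g, a subunit of the elongation factor that reloads eEF1A, was at 3.49 and 4.44 against 2.73 and 2.14. Its probe set was dim, near the array medians of 2.072 and 2.085 in the Ddb1-deficient samples, where the list's median was 10.01 and 9.81. Eif3f, a subunit of eIF3, was at 9.43 and 9.40 against 8.87 and 8.90. Of 21 further initiation factors 4 were separate and lower (19.0%) and 3 higher (14.3%), with a median of 0.02 and none at that p. The share of lower ones was near that of all genes (18.5%) and under that of all bright genes (40.6%). Of the 21, 6 had a mean log2 under 8. Their largest separate differences were Eif5b, which joins the subunits (0.63 ± 0.25), and Eif3m (-0.44 ± 0.17).

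RNA polymerase I makes the ribosomal RNA precursor. Of 11 measured genes of this machinery, 5 were separate and lower (45.5%) and 2 higher (18.2%), all with a mean log2 under 8. Over all genes these shares were 18.5% and 22.6%. Polr1e was at 5.13 and 5.24 against 3.01 and 3.71 (-1.82 ± 0.30), Taf1a differed by -0.98 ± 0.19 and Polr1b by -0.88 ± 0.27. Ubtf, which opens the ribosomal DNA for transcription, was higher, at 5.41 and 5.68 against 6.43 and 6.34. Of 53 ribosome assembly factors 14 were separate and lower (26.4%) and 4 higher (7.55%), with a median of -0.08. Over all genes the separate shares were 18.5% and 22.6%. At an unadjusted limma p under 0.05, 2 of the 53 were lower, Brix1 (-0.65 ± 0.17) and Mphosph10 (-0.53 ± 0.17), and 2 were higher. These shares were under the 6.05% and 4.9% of all genes. Sbds, which releases eIF6 from the large subunit, was higher (5.45 and 5.57 against 6.42 and 6.56), and so was Nop2 (3.25 and 2.72 against 3.60 and 3.97).

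The 77 mitochondrial ribosomal proteins, which serve a separate ribosome, had a median of -0.18 with quartiles of -0.50 and 0.16. Of these genes 24 were separate and lower (31.2%, against 18.5% of all genes) and 9 higher (11.7%, against 22.6%). At an unadjusted limma p under 0.05, 5 of the 77 were lower and 1 was higher, against 6.05% and 4.9% of all genes. The share of lower ones was thus near that of all genes. Mrpl9 (-1.72 ± 0.23), Mrpl58 (-1.22 ± 0.18), Mrpl44 (-1.15 ± 0.24) and Mrps35 (-1.08 ± 0.29) had the largest differences among the mitochondrial ones at that p. Their spread was wider than that of the cytosolic members, and 71 of them had a mean log2 under 8.

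Of 12 measured regulators of the mTOR and Myc pathways, Mycn was higher (7.97 and 7.37 against 8.86 and 8.58) and Eif4ebp1, the repressor of cap-dependent translation, was lower (5.46 and 5.37 against 4.11 and 4.52). Each had an unadjusted limma p under 0.05, where 6.05% of all genes were lower and 4.9% higher. The median of these 12 was 0.07. Of 10 genes of the Trp53 pathway, 4 were separate and higher (Trp53, Cdkn1a, Ccng1 and Eda2r), where 22.6% of all genes were. The other 6 overlapped, Mdm2 (-0.30), Phlda3 (-0.14), Bbc3 (0.09) and Bax (0.20) among them, and the list's median was 0.15. Eda2r, a Trp53 target, had the largest difference, at 1.54 and 1.75 against 4.13 and 4.27. Its control values lay under the array medians of 2.026 and 2.046. It alone of the 10 had an unadjusted limma p under 0.05.

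**Figure D5:**
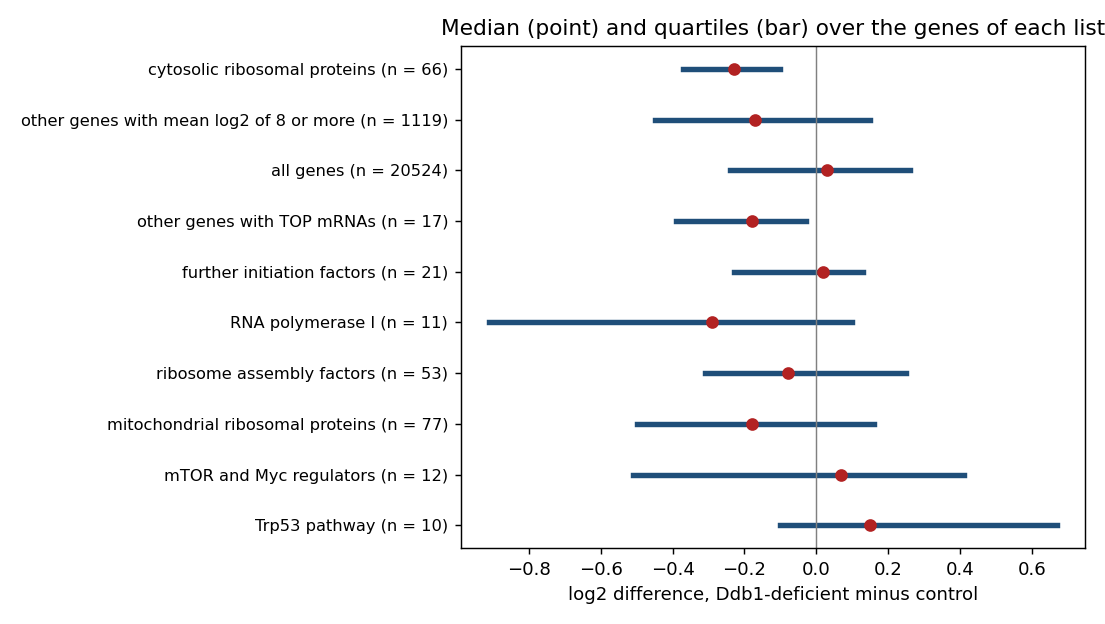
Median (red point) and quartiles (blue bar) of the log2 difference over the genes of each list, with all genes and other bright genes for comparison. The cytosolic ribosomal proteins have a median of -0.23 with a narrower bar than other bright genes (-0.17) or mitochondrial ribosomal proteins (-0.18). The lists were not matched for level.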

How the data were processed

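Gene expression was measured in LSK cells on 4 Affymetrix arrays, 2 control and 2 Ddb1-deficient. RNA (20 ng) went through 2 rounds of amplification, and RMA normalization was done in GeneSpring by the authors. The deposited table gives the authors' RMA intensity per probe set on a linear scale, and the deposited series matrix gives log2 values relative to the control mean, used as an alternative. A further deposited list, of the authors' fold changes and p-values, was not used. The log2 of the intensity was used, with the 64 control probe sets left out. Symbols were updated through a RefSeq table, and 20524 genes were fitted by limma (3.58.1, R 4.3.3; lmFit, then eBayes) with no block, and p-values were adjusted over all genes by Benjamini-Hochberg. The fit was tested on simulated data. Same-numbered samples share their sex but did not deviate together (correlation of deviations -0.015), so the replicate block is an alternative. Named members were the separate ones at an unadjusted p under 0.05, paralogs and partners, stalk, Rpl11, Rps14, Rps19 and X-linked genes; other lists gave up to 4 such genes, or 2 where none passed. Single values of a few members are not reported here. Members and lists were chosen with earlier results of these data known. The number of arrays limits the precision.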

Additional observations from a re-analysis of the deposited data

How the results depend on the processing

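No member had an adjusted p under 0.05 in any setting run, nor under 0.1 in the plain fit. Among genes with a mean log2 of at least 8, a limit chosen after seeing the data, Rpl31 had a limma adjusted p = 0.08. The median difference kept its sign, -0.14 after quantile normalization again and -0.29 to -0.17 with each array left out. The 45 separate and lower members became 31 after quantile normalization, 37 with probe sets averaged and 30 of 53 without x and s probe sets. The 5 lower members at an unadjusted p under 0.05 became 8 with arrays centred, 1 after quantile normalization, 9 with probe sets averaged, 1 among genes above the median, 16 by the methods' t-test, 16 with trend and robust, 2 with the replicate number as a block (0 higher) and 8 among those bright genes. Leaving out arrays gave 0 to 6, with 1 without the first control and 0 without the second. The 1 higher member became 0 in the t-test, the trend fit and both level filters, and 0 to 1 with arrays left out. Separate higher members numbered 5 after quantile normalization, 3 with probe sets averaged, 3 without x and s probe sets, 0 among bright genes and 3 to 6 with arrays left out. The signal share differed by -0.59 percentage points, by -0.83 over all probe sets, -0.38 without x and s probe sets, -0.83 among bright probe sets and -0.66 to -0.51 with arrays left out; the series matrix, being centred, gives none. The sign turned for Rpl7l1 with probe sets averaged (-0.26), and with an array left out for Rpl22l1 (-0.29 to 0.38), Rpl39l (-0.20 to 0.03), Rps27l (-0.08 to 0.54) and Rplp2 (-0.45 to 0.04). The cause of these changes was not tested.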
